A study of Mus musculus with 12 samples.

Results

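Genes of nucleotide, one-carbon and polyamine synthesis were followed in mouse gastrocnemius, the main calf muscle, across 12 libraries. The set holds 47 listed genes of purine and pyrimidine synthesis and salvage, of folate-bound one-carbon and methionine metabolism, and of polyamine metabolism. All 47 were matched by symbol to 1 identifier each among the 47643 in the count table, and 35 had enough reads to be tested, among 6676 such genes. The 6 female C57BL/6J mice, aged 11 weeks, were 3 controls and 3 with c-myc over-expression. Each gave a left leg, which was not contracted, and a right leg, which underwent acute high-intensity contraction, so that 4 groups of 3 libraries resulted and contraction cannot be told apart from body side. The labels do not give the construct or promoter that raised c-myc, the cell type it acts in, or the time from contraction to sampling.

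Purine rings are built stepwise on a ribose phosphate supplied by the PRPS enzymes, while the pyrimidine ring is built first, by CAD and DHODH, and joined to ribose by UMPS. Salvage enzymes such as HPRT, APRT and the uridine-cytidine kinases recycle bases and nucleosides, and folate carries the one-carbon units that serine supplies through the SHMT and MTHFD enzymes. Polyamines come from ornithine, decarboxylated by ODC1, to which SRM and SMS add aminopropyl groups made by AMD1. Antizymes (OAZ) send ODC1 to the proteasome, and antizyme inhibitor (AZIN1), an inactive relative of ODC1, holds the antizymes back. In contracting muscle AMP deaminase turns AMP into IMP, and many genes of these pathways are textbook targets of MYC, a transcription factor that drives growth.

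Library totals ran from 1371732 to 1643216 reads (median 1526524), and 1 read was worth 0.601 to 0.774 CPM (reads scaled to 1 total per library, adjusted by TMM, which takes most genes as unchanged). All CPM values below are on this scale, and the error after each log2 change is its SE. The 9 skeletal muscle fibre markers were abundant in every library (148893 to 193383 CPM summed), whereas the 3 satellite cell markers summed to 2.63 CPM at most and the 9 markers of dividing cells to 16.8 at most. Myc reads went against the labels in part: uncontracted control legs held 0, 1 and 0 and uncontracted Myc legs 11, 9 and 9. Contracted control legs 1, 2 and 3 held 1, 10 and 59, and contracted Myc legs 32, 0 and 2. The 4 contracted libraries numbered 2 and 3 are therefore in doubt as to genotype, although a change of Myc with contraction itself cannot be told apart from a wrong label. Tested results of the main members that rest on these 4 are also given without them, where each genotype has 1 contracted library left. All directions follow the labels, and so does the pairing of legs, so that the doubt reaches the counts by animal too. The share of all genes that moved 1 way in every animal was not counted. Whether a 3' tag library counts the added c-myc depends on its 3' end, which the labels do not describe.

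With contraction averaged over both genotypes, 4 of the 35 tested members rose and none fell. They were Azin1, Uck2, Ampd3 and Srm. Over all genes tested, 5.71% rose and 1.77% fell, and the member median of -0.02 on the log2 scale lay beside -0.00326 for all genes. This average weights every contracted library alike whatever its genotype label, and a fit by leg alone also called 4 members. The ranges of the 6 contracted and 6 uncontracted legs did not overlap in 3 members, all higher when contracted (8.57%, against 2.95% of all genes), and none was lower in this way (0.869% of all genes were). Of these 3, Ampd3 and Uck2 met the low-count filter only through their contracted legs, which in part sets their lack of overlap. In the single genotypes, 3 members rose in control (2.38% of all genes rose and 0.419% fell) and 3 in Myc (3.45% and 0.449%). None of the 35 passed for Myc against control in uncontracted legs, in contracted legs, or for the interaction, and 0% of all genes did so in either direction by edgeR. At an unadjusted p under 0.05 there were 421 genes (6.31%), with 5 of the 35 members (14.3%), in uncontracted legs, 205 genes (3.07%) with 1 member (2.86%) in contracted legs, and 331 genes (4.96%) with 4 members (11.4%) for the interaction. DESeq2 called 1, 0 and 0 genes in these comparisons, none of them a member. Without the 4 contracted libraries in doubt, 1 contracted library per genotype is left. The averaged changes were then 1.58 for Azin1, 1.18 for Uck2, 1.20 for Ampd3 and 0.77 for Srm.

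**Figure D1:**
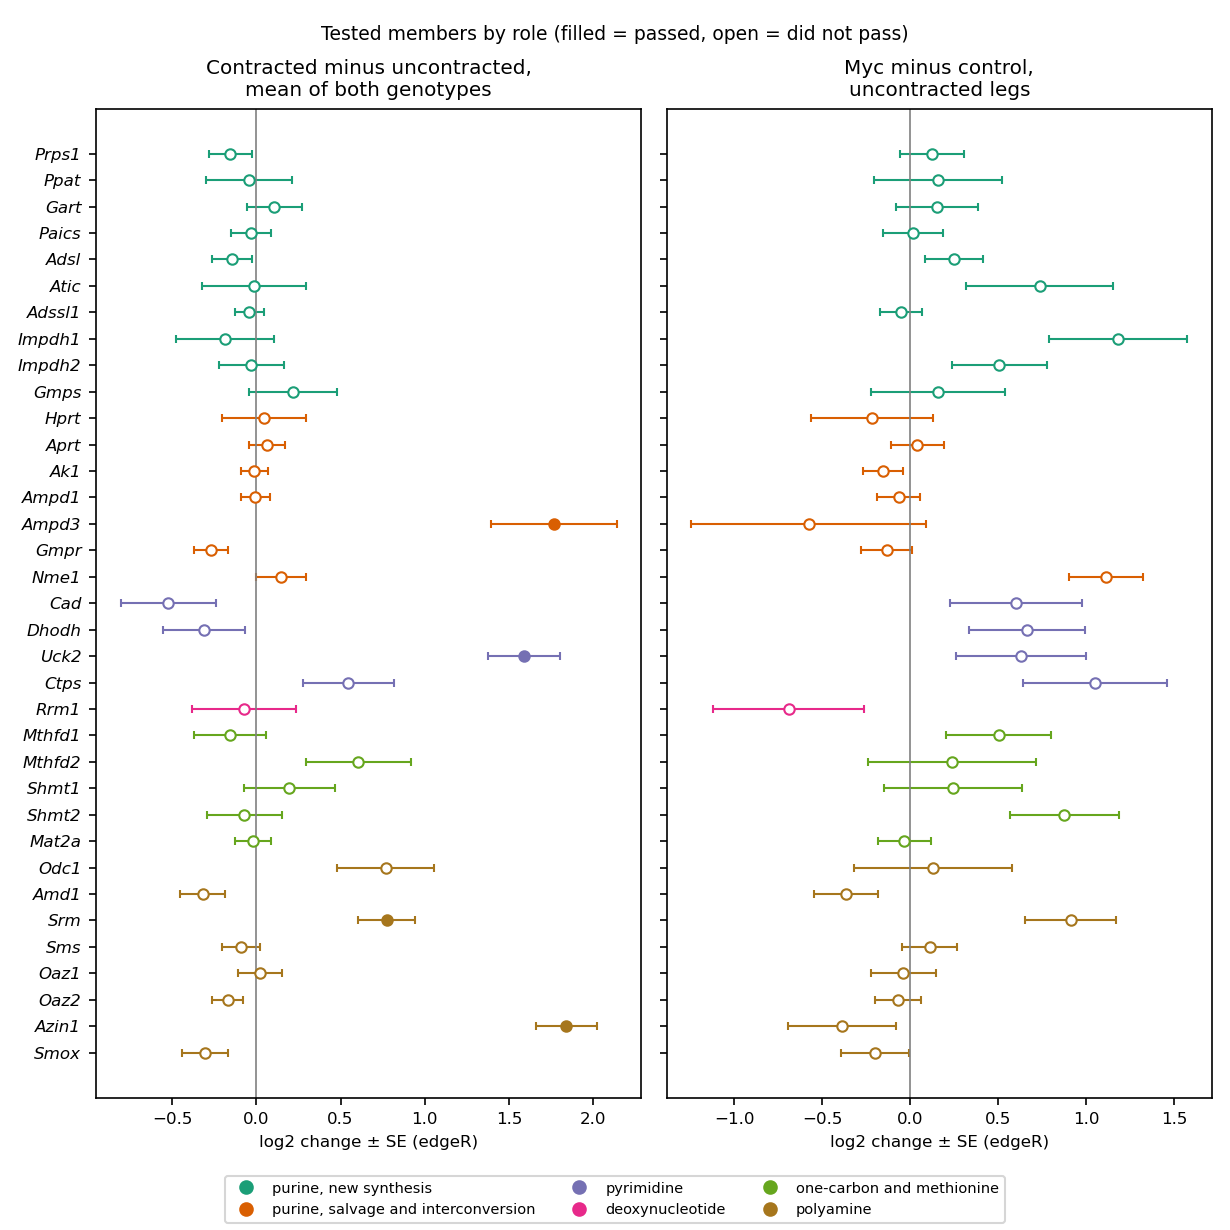
Log2 change ± SE (edgeR) of the 35 tested members, ordered by role, for contraction averaged over genotypes (left) and for Myc against control in uncontracted legs (right). Filled circles passed the test at an adjusted p under 0.05, which 4 members did on the left and none on the right.

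Among the polyamine genes, contraction went with more mRNA for the antizyme inhibitor and for spermidine synthase. Azin1 (ENSMUSG00000037458, chr15:38487427-38519266, minus strand, GRCm38 as in GENCODE M21) showed the smallest p of all members. Uncontracted control legs 1, 2 and 3 had 12.7, 14.8 and 14.7 CPM, and contracted ones 43.4, 39.5 and 38.2. In Myc animals the values were 13.9, 7.53 and 10.8 CPM uncontracted and 31.0, 59.4 and 54.1 contracted. Every contracted library thus lay above every uncontracted one, and the level was higher in the contracted leg of 6 of 6 animals. The rise was 3.58-fold on average (log2 change 1.84 ± 0.18 SE, edgeR adjusted p = 2.53e-07). It was 1.51 ± 0.25 in control and 2.17 ± 0.26 in Myc, and the difference of 0.65 ± 0.37 between them did not pass (edgeR adjusted p = 0.97). Without the 4 libraries in doubt the change was 1.58 on average, 1.61 in control and 1.54 in Myc, and each still passed (edgeR adjusted p = 8.57e-05, 0.00375 and 0.0201), while the interaction was -0.07.

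Srm (ENSMUSG00000006442, chr4:148591503-148594993, plus strand) encodes spermidine synthase. Its levels were 15.3, 12.1 and 7.96 CPM in uncontracted and 28.0, 27.6 and 25.9 in contracted control legs. Uncontracted Myc legs had 22.7, 21.3 and 22.4 CPM and contracted ones 26.9, 21.8 and 35.5. The control groups were far apart, while the Myc groups overlapped. Srm rose 2.31-fold in control (log2 change 1.21 ± 0.25, edgeR adjusted p = 0.00663) and 1.71-fold on average (0.77 ± 0.17, edgeR adjusted p = 0.00458). In Myc the change was 0.34 ± 0.23 and did not pass (edgeR adjusted p = 0.51), and the interaction of -0.86 ± 0.34 did not pass either (edgeR adjusted p = 0.91). Without uncontracted control 3 the control comparison no longer passed (0.98, edgeR adjusted p = 0.0608), nor did it, or the average, without the 4 libraries in doubt (1.24 and 0.77, edgeR adjusted p = 0.107 and 0.145).

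Odc1, for the enzyme that opens the pathway, had 9.55, 4.71 and 2.45 CPM in uncontracted and 10.5, 7.24 and 11.7 in contracted control legs, and 3.78, 6.28 and 8.51 and 8.97, 11.5 and 9.62 in the Myc legs. It was higher in the contracted leg of 6 of 6 animals, but the legs overlapped and the averaged change of 0.77 ± 0.29 did not pass (edgeR adjusted p = 0.12). Without uncontracted control 1, the highest uncontracted library, it was 1.08 and passed (edgeR adjusted p = 0.028). The aminopropyl donor gene Amd1 had 32.5, 38.4 and 37.3 CPM in uncontracted and 26.6, 28.96 and 23.97 in contracted control legs, and 30.2, 25.7 and 27.9 and 25.5, 21.2 and 26.5 in the Myc legs. It was lower in the contracted leg of 6 of 6 animals, although the legs overlapped, and its averaged change of -0.32 ± 0.13 did not pass (edgeR adjusted p = 0.17). Smox, the spermine oxidase gene, gave -0.31 ± 0.14 (edgeR adjusted p = 0.22), with control legs at 47.7, 46.4 and 57.5 CPM uncontracted and 41.3, 31.6 and 34.3 contracted, and Myc legs at 37.8, 44.6 and 50.3 and at 29.0, 46.1 and 46.9. The control legs did not overlap in Smox, and the Myc legs did.

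The other tested polyamine members had averaged changes between -0.17 and 0.02, and their legs overlapped. The spermine synthase gene Sms had 77.6, 57.2 and 58.8 CPM in uncontracted and 69.99, 62.5 and 59.6 in contracted control legs, and 75.6, 72.2 and 60.4 and 58.6, 63.7 and 63.1 in the Myc legs (-0.09 ± 0.11 SE). The antizyme gene Oaz1 had 71.3, 70.6 and 53.2 CPM in uncontracted and 76.3, 48.05 and 59.6 in contracted control legs, and 64.9, 52.7 and 72.7 and 78.6, 63.7 and 65.5 in the Myc legs (0.02 ± 0.13). Its relative Oaz2 had 336, 315 and 274 CPM in uncontracted and 297, 230.4 and 262 in contracted control legs, and 268, 279 and 335 and 283, 271 and 264 in the Myc legs (-0.17 ± 0.09). None of these 3 passed. Sat1, which starts polyamine breakdown, had 24 reads in all 12 libraries and was not tested. Of the 8 tested polyamine genes 2 rose on average and 6 did not pass.

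**Figure D2:**
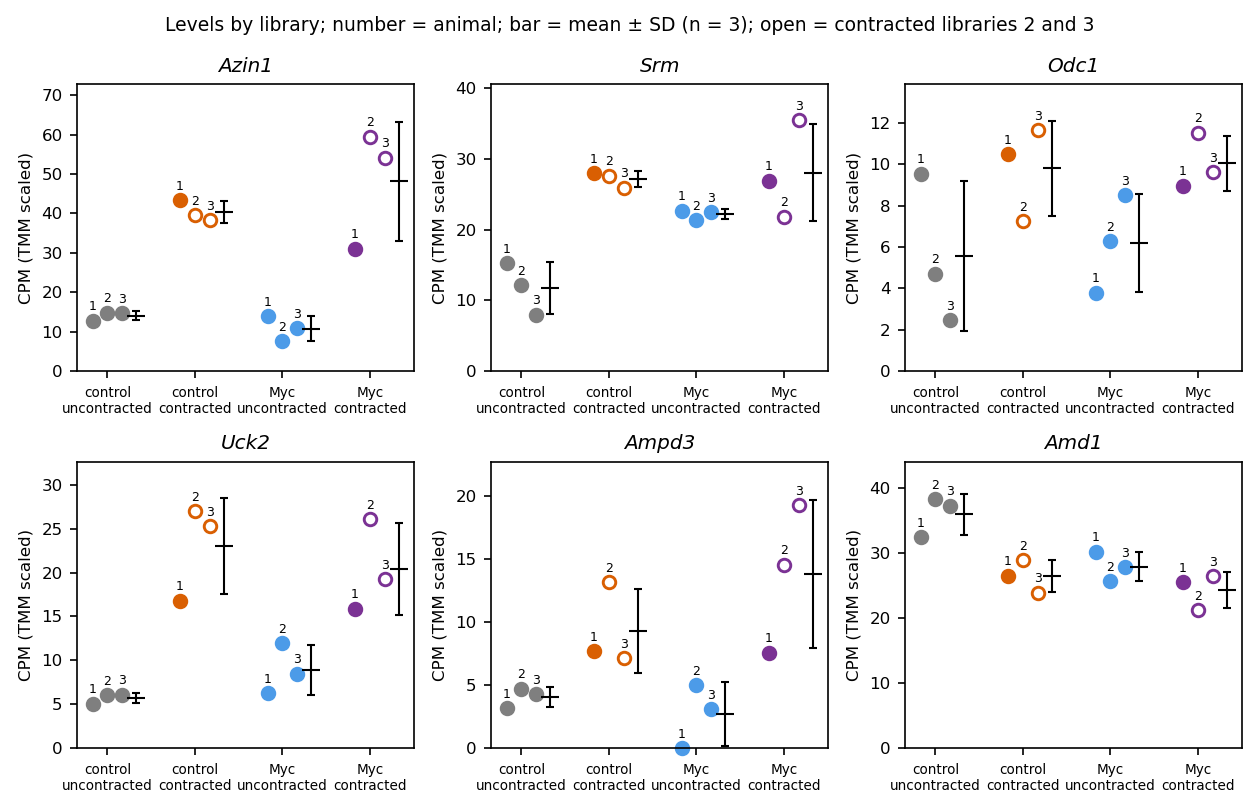
CPM (TMM scaled) by library for 6 members in the 4 groups, with the animal number above each point and mean ± SD (n = 3) beside it. Open points are the 4 contracted libraries whose Myc reads go against their labels; for Azin1, Uck2 and Ampd3 all 6 contracted points lie above all 6 uncontracted ones.

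In purine salvage and interconversion, Ampd3 rose with contraction and its relative Ampd1 did not pass. Ampd1 encodes the muscle isoform of AMP deaminase and Ampd3 the isoform known from red blood cells. Ampd3 (ENSMUSG00000005686, chr7:110768206-110812405, plus strand) had 3.18, 4.71 and 4.28 CPM in uncontracted and 7.70, 13.2 and 7.13 in contracted control legs. In Myc animals it had 0, 5.02 and 3.09 CPM uncontracted and 7.59, 14.6 and 19.2 contracted. Ampd3 shares 195 of 5627 exonic bases with Rnf141 on the opposite strand (494 reads in all), whose reads cannot be told apart from its own there. No uncontracted library reached the lowest contracted one for Ampd3, although uncontracted Myc legs rest on 0, 8 and 4 reads. Uncontracted legs held 0 to 8 reads and contracted legs 11 to 32. Ampd3 thus met the 10-read filter through its contracted legs alone, and its lack of overlap is in part set by that filter. The averaged change was 3.40-fold (1.77 ± 0.37, edgeR adjusted p = 0.00344), with 1.19 ± 0.52 in control, which did not pass (edgeR adjusted p = 0.32), and 2.34 ± 0.53 in Myc, which did (edgeR adjusted p = 0.0103). The interaction of 1.15 ± 0.79 did not pass (edgeR adjusted p = 0.97). In Myc the change was 1.71 without uncontracted Myc 1, which has 0 reads, and 3.25 without uncontracted Myc 2, and it no longer passed without contracted Myc 3 (2.03, edgeR adjusted p = 0.0964). Without the 4 libraries in doubt it was 1.48 in Myc and 1.20 on average, and neither passed (edgeR adjusted p = 0.907 and 0.651).

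Markers of blood cells moved with contraction as well. The 4 tested haemoglobin genes rose on average, and the 5 erythrocyte markers summed to 310 to 462 CPM in uncontracted and 399 to 1000 CPM in contracted legs. Both tested neutrophil markers, S100a8 and S100a9, rose, and the 8 neutrophil markers summed to 0 to 4.28 CPM uncontracted and 6.07 to 74.5 contracted, with Csf3r and Ly6g at 0 reads in all libraries. Of 5 tested macrophage markers Cd68 rose and Csf1r and C1qa fell, and their 9-gene sum ran from 105 to 199 CPM over all libraries. The part of these cells in the rise of Ampd3, Azin1, Uck2 and Srm was not tested. In bulk muscle a change in cell numbers and a change in RNA per cell cannot be told apart.

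Ampd1 stood at 398, 425 and 353 CPM in uncontracted and 421, 348 and 365 in contracted control legs. In Myc animals it stood at 391, 343 and 389 and at 393, 363 and 397 CPM, and its averaged change was -0.01 ± 0.09 (SE). The muscle adenylate kinase gene Ak1 had 459, 409 and 386 CPM in uncontracted and 376, 364 and 399.7 in contracted control legs, and 366, 371 and 389 and 396, 431 and 391 in the Myc legs, with changes of -0.14 ± 0.11 in control and 0.11 ± 0.11 in Myc. Gmpr, which encodes GMP reductase, was lower in the contracted leg of 6 of 6 animals, although the legs overlapped. Its CPM were 303, 296 and 247 in uncontracted and 284, 188 and 226 in contracted control legs, and 228, 254 and 289 and 201, 224 and 217 in the Myc legs. It shares 375 of 2323 exonic bases with Atxn1 on the opposite strand, whose reads cannot be told apart from its own there. Its averaged change of -0.27 ± 0.10 did not pass (edgeR adjusted p = 0.13) except without contracted control 1 (-0.37, edgeR adjusted p = 0.0186). Aprt, for adenine salvage, had 49.0 to 63.7 CPM over all libraries and an averaged change of 0.06 ± 0.11. Hprt had 7.64, 6.73 and 6.73 CPM in uncontracted and 6.30, 4.61 and 4.53 in contracted control legs, and 6.93, 5.02 and 6.19 and 10.3, 9.10 and 7.22 in the Myc legs, with an averaged change of 0.05 ± 0.25; its enzyme salvages hypoxanthine and guanine. Of the 7 tested genes of this role 1 rose and 6 did not pass.

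In the pyrimidine branch, Uck2 rose. It encodes the uridine-cytidine kinase that makes UMP and CMP from nucleosides (ENSMUSG00000026558, chr1:167222883-167285320, minus strand). Uncontracted control legs had 5.09, 6.06 and 6.12 CPM and contracted ones 16.8, 27.0 and 25.3. Uncontracted Myc legs had 6.30, 11.9 and 8.51 CPM and contracted ones 15.9, 26.1 and 19.2. The legs did not overlap, and the contracted leg was higher in 6 of 6 animals. Uncontracted legs held 8 to 19 reads and contracted legs 23 to 43. Too few uncontracted libraries reached the low-count filter for Uck2 to be tested on them alone. Its lack of overlap is thus in part set by that filter. The averaged change was 3.01-fold (1.59 ± 0.21, edgeR adjusted p = 2.31e-05). It was 1.99 ± 0.31 in control (edgeR adjusted p = 0.000408) and 1.19 ± 0.29 in Myc (edgeR adjusted p = 0.0212), and the interaction of -0.80 ± 0.44 did not pass (edgeR adjusted p = 0.97). The call in Myc was lost by DESeq2 (adjusted p = 0.0576) and by edgeR without uncontracted Myc 1 or 3 or contracted Myc 2 or 3 (0.95 to 1.23). Without the 4 libraries in doubt, none of the Uck2 changes passed: 1.53 in control, 0.84 in Myc and 1.18 on average (edgeR adjusted p = 0.166, 0.847 and 0.0552).

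The other kinase gene Uck1 had 3.82, 2.02 and 4.28 CPM in uncontracted and 5.60, 5.27 and 1.94 in contracted control legs, and 3.78, 5.65 and 4.64 and 4.14, 1.82 and 1.80 in the Myc legs; with 68 reads in all it was not tested. Cad, which encodes the enzyme of the opening steps of pyrimidine synthesis, had 10.2, 8.75 and 5.51 CPM in uncontracted and 4.90, 5.92 and 10.4 in contracted control legs. In Myc legs it had 9.45, 14.4 and 13.2 CPM uncontracted and 11.7, 4.85 and 4.21 contracted, so that contracted Myc 1 lay inside the uncontracted range and contracted Myc 2 and 3, both in doubt, lay below it. Its change in Myc was -0.86 ± 0.39 and did not pass (edgeR adjusted p = 0.27). Without contracted Myc 1 it was -1.43 and passed (edgeR adjusted p = 0.0383), and without the 4 libraries in doubt it was -0.06. Pyrimidine synthesis passes through mitochondria at the DHODH step. Dhodh had 7.64, 6.06 and 8.57 CPM in uncontracted and 5.60, 11.2 and 6.48 in contracted control legs, and 8.82, 15.1 and 11.6 and 6.21, 7.88 and 7.82 in the Myc legs (averaged change -0.31 ± 0.24). The CTP synthase gene Ctps had 5.09, 3.36 and 4.90 CPM in uncontracted and 5.60, 12.5 and 8.42 in contracted control legs, and 11.97, 10.05 and 5.42 and 11.7, 11.5 and 7.22 in the Myc legs (0.55 ± 0.27, edgeR adjusted p = 0.265). Its relative Ctps2 had 1.91, 0 and 3.06 CPM in uncontracted and 3.50, 1.97 and 3.24 in contracted control legs, and 1.89, 2.51 and 0.774 and 2.07, 3.64 and 1.80 in the Myc legs; it had 41 reads in all and was not tested. Over the 4 tested pyrimidine genes 1 rose and 3 did not pass.

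None of the 10 tested genes of new purine synthesis passed a contraction test, and their averaged changes ran from -0.19 to 0.22 (median -0.04). Prps1, Paics, Adsl and Adssl1 had more than 38 CPM in every library. Adssl1, the muscle adenylosuccinate synthase gene, had 254 to 300 CPM uncontracted and 238 to 294 contracted, with an averaged change of -0.04 ± 0.09 (SE). Of the one-carbon genes, none of 5 tested passed, with averaged changes from -0.16 to 0.61. The highest was that of the mitochondrial folate dehydrogenase gene. Mthfd2 had 3.18, 3.36 and 4.28 CPM in uncontracted and 6.999, 5.27 and 7.77 in contracted control legs, and 3.78, 2.51 and 6.96 and 4.14, 4.85 and 7.22 in the Myc legs. It was higher in the contracted leg of 6 of 6 animals (0.61 ± 0.31, edgeR adjusted p = 0.28). Mat2a, which makes S-adenosylmethionine, had 104 to 141 CPM uncontracted and 108 to 147 contracted (-0.02 ± 0.11). Shmt1 had 6.36, 12.8 and 5.51 CPM in uncontracted and 12.6, 9.21 and 12.3 in contracted control legs, and 13.2, 5.02 and 10.8 and 12.4, 6.67 and 8.42 in the Myc legs (0.20 ± 0.27); it encodes the cytosolic serine hydroxymethyltransferase. Mthfd1l had 1.27, 0.673 and 0.612 CPM in uncontracted and 2.10, 0.658 and 3.24 in contracted control legs, and 1.26, 0.628 and 3.87 and 2.07, 1.21 and 3.01 in the Myc legs, on 31 reads in all, and was not tested. Rrm1, for the large subunit of ribonucleotide reductase, was the tested deoxynucleotide gene, with 6.30, 6.58 and 5.18 CPM in contracted control and 4.14, 8.49 and 3.61 in contracted Myc legs (-0.07 ± 0.31).

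**Figure D3:**
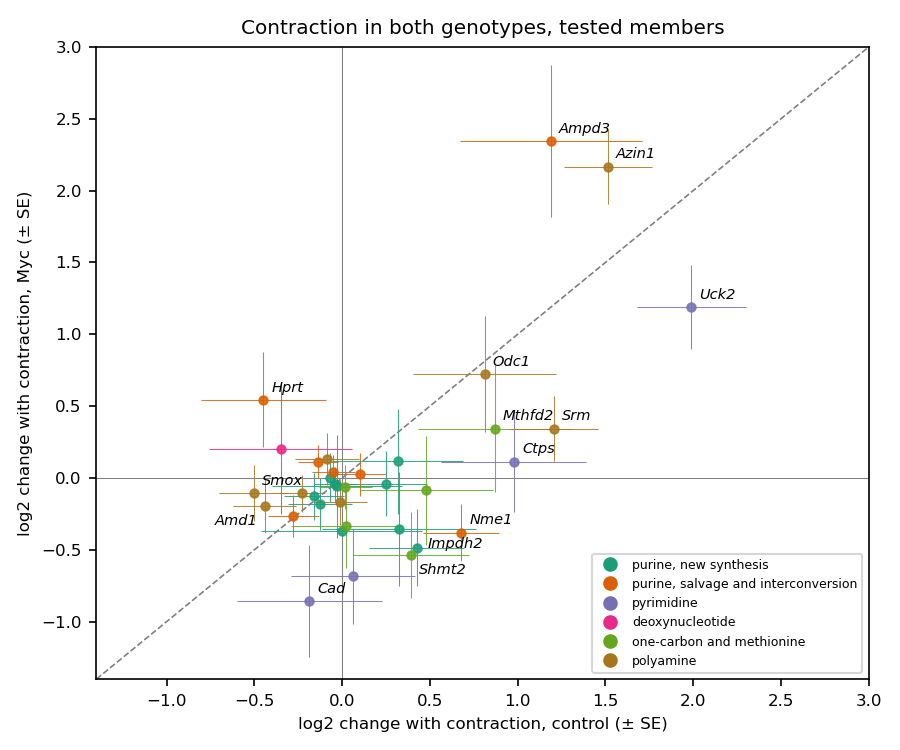
Log2 change with contraction ± SE (edgeR) in control (horizontal) against Myc animals (vertical) for the 35 tested members, coloured by role, with the line of equal change dashed. Azin1, Ampd3 and Uck2 lie at the upper right, and Nme1 lies at 0.68 in control and -0.38 in Myc.

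In uncontracted legs, where Myc reads followed the labels, no gene passed for Myc against control after adjustment. The ranges of the 2 groups were apart, with Myc higher, in 8 of 35 members (22.9%, against 7.26% of all genes). These were Nme1, Srm, Impdh1, Shmt2, Ctps, Dhodh, Uck2 and Mthfd1. Myc was lower without overlap in 1, Amd1 (2.86%, against 5.60% of all genes). The member median was 0.13, beside -0.00529 for all genes, and was -0.03 among the 22 members left by a stricter low-count filter. The share of members apart was not recounted under that filter. A gene of few reads can meet the 10-read filter through the group where it is high, which limits this share. Impdh1, for example, had 10, 8 and 5 reads in uncontracted control legs and 15, 17 and 18 in uncontracted Myc legs. Cell markers differed between these libraries too. Summed fibroblast markers (5 genes) were 892 to 1523 CPM in control and 607 to 744 in Myc, macrophage markers (9 genes) 140 to 199 and 116 to 128, and muscle fibre markers (9 genes) 177889 to 193383 and 164612 to 167183, without overlap. Single markers inside these sums varied. Col1a1 stood at 508 to 1097 CPM in control and 332 to 470 in Myc, while Pdgfra, Col1a2 and Dcn overlapped. Csf1r stood at 53.8 to 67.3 and 32.1 to 40.2 CPM, while Lyz2, C1qa, C1qb and C1qc overlapped. Endothelial (146 to 163 and 142 to 173 CPM) and erythrocyte markers (310 to 462 and 353 to 410) overlapped. No marker passed, the smallest p being those of Col1a1 (-1.02 ± 0.28, rank 16), Csf1r (-0.71 ± 0.21, rank 31) and Col3a1 (-0.67 ± 0.20, rank 40), and their part in the differences of the members was not tested.

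Nme1 (ENSMUSG00000037601, chr11:93956979-93968521, minus strand) encodes a nucleoside diphosphate kinase, which makes nucleoside triphosphates at the expense of ATP. Uncontracted control legs 1, 2 and 3 had 37, 35 and 44 reads and uncontracted Myc legs 84, 86 and 69. These equal 23.5, 23.6 and 26.9 CPM against 52.9, 54.0 and 53.4, a gap far wider than the spread inside either group. The difference of 1.11 ± 0.21 (SE; 2.16-fold) had the second smallest p of the 6676 genes (rank 2, unadjusted p = 3.51e-05, edgeR adjusted p = 0.117). It passed when only the 6 uncontracted libraries were fitted (1.11, edgeR adjusted p = 0.0156), with no low-count filter (edgeR adjusted p = 0.00037), and without contracted Myc 1 or 2 (edgeR adjusted p = 0.0278 and 0.0474) or the 4 libraries in doubt (0.0111). Leaving out other single libraries gave adjusted p-values up to 0.637. The neighbouring gene Nme2 had 1.27, 0.673 and 2.45 CPM in uncontracted and 0, 1.32 and 1.30 in contracted control legs, and 0.630, 1.88 and 0.774 and 0.690, 0.607 and 0 in the Myc legs; with 18 reads in all it was not tested. The annotated read-through gene Gm20390, which is listed at 0 reads, shares 573 of the 1171 exonic bases of Nme2 and 418 of the 3342 of Nme1, and how reads in shared bases were assigned is not stated.

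Because MYC binds the E-box letters CACGTG, the RefSeq promoter windows of the members (GRCm38.p6, 250 bases before to 50 after each start) were searched for them on both strands (the letters are their own reverse complement). The table held 41 of the 47 members in 54 windows. Srm, Azin1, Ampd1, Dhodh, Pfas and Rrm2b were not among them. E-box letters stood in windows of 7 of the 41 members (17.1%) and of 8.09% of the 27025 genes in the table, or in 14.8% of member windows and 7.15% of all windows. Each match is shown with 12 bases on either side, 5′ to 3′ on the gene's strand, with the E-box in capitals, since Nme1 holds it close to both of its starts.
Nme1, start at 93968272, chr11:93968273-93968302: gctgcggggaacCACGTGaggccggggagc
Nme1, start at 93968025, chr11:93968037-93968066: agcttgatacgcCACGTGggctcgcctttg
Impdh2, chr9:108560314-108560343: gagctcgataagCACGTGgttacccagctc
Atic, chr1:71557137-71557166: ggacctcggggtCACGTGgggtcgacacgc
Paics, chr5:76951087-76951116: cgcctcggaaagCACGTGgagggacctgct
Tyms, chr5:30073669-30073698: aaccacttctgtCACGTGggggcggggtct
Ampd3, chr7:110772514-110772543: ccagcagtgggtCACGTGtcagctctgtaa
Sms, chrX:157492466-157492495: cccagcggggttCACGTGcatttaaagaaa

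Nme1, Tyms and Sms lie on the minus strand and the others on the plus strand. In Nme1 the E-box begins 18 bases before the one start and 29 before the other, in Atic 7, in Tyms 61, in Impdh2 110, in Sms 196 and in Paics 203. In Ampd3 it lies 78 bases before 1 of 3 listed starts. Exons of any gene on either strand of GENCODE M21 were set against the stretches shown. Those of Nme1 at the upstream start, of Impdh2 and of Paics lie wholly in such exons, that of Atic in part (17 of 30 bases), and the other 4 in none. The Paics stretch lies before the annotated Paics gene, which begins at 76951307, and within the span of Ppat on the opposite strand. Among the 8 members whose ranges were apart with Myc higher, Nme1 held the letters. Impdh1, Shmt2, Ctps, Uck2 and Mthfd1 did not within these windows, and Srm and Dhodh were not in the table. The letters TGACGTCA, which CREB and ATF factors bind, were searched on both strands too and stood in the window of 1 member, Umps (2.44% of members, 2.03% of all genes).

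Impdh1 and Impdh2 encode IMP dehydrogenases, which commit IMP to guanine nucleotides. Impdh1 had 6.36, 5.38 and 3.06 CPM in uncontracted control and 9.45, 10.7 and 13.9 in uncontracted Myc legs, and the groups did not overlap (1.18 ± 0.39, edgeR adjusted p = 0.56). Impdh2 had 12.1, 17.5 and 12.2 CPM against 26.5, 18.8 and 13.2, and the groups overlapped (0.51 ± 0.27, edgeR adjusted p = 0.79). Srm, with the values given above, differed by 0.91 ± 0.26 (1.88-fold, rank 24 by p, edgeR adjusted p = 0.54). Shmt2, the mitochondrial serine hydroxymethyltransferase gene, had 10.2, 10.1 and 9.18 CPM against 20.2, 18.8 and 14.7 (0.87 ± 0.31, edgeR adjusted p = 0.57). Its cytosolic counterpart Shmt1 had 6.36, 12.8 and 5.51 against 13.2, 5.02 and 10.8 and overlapped (0.24 ± 0.39). Ctps had 5.09, 3.36 and 4.90 CPM against 11.97, 10.05 and 5.42 (1.05 ± 0.41, edgeR adjusted p = 0.68).

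Smaller differences were seen in Mthfd1, the cytosolic trifunctional folate enzyme gene, with 7.64, 7.40 and 8.57 CPM in control and 9.45, 12.6 and 11.6 in Myc uncontracted legs (0.50 ± 0.30, edgeR adjusted p = 0.81). Dhodh had 7.64, 6.06 and 8.57 against 8.82, 15.1 and 11.6 CPM, barely apart (0.66 ± 0.33, edgeR adjusted p = 0.77). Atic, for the last steps to IMP, had 6.36, 2.02 and 7.34 against 10.7, 9.42 and 6.19 CPM and overlapped (0.74 ± 0.42). Cad gave 0.60 ± 0.37 with overlap. All 4 tested pyrimidine genes lay above 0, from 0.60 to 1.05, as did 49.3% of all genes, and the 4 share the same libraries. The untested pyrimidine members gave 0.15 (Umps), 0.46 (Uck1) and 0.07 (Ctps2) without a low-count filter. Rrm1 had 6.36, 10.1 and 6.73 against 3.78, 3.14 and 7.74 CPM (-0.69 ± 0.43). Amd1 had 32.5, 38.4 and 37.3 CPM in control and 30.2, 25.7 and 27.9 in Myc legs (-0.37 ± 0.18, edgeR adjusted p = 0.77). None of these passed. The muscle-type purine genes Adssl1, Ak1 and Ampd1 were at -0.05 ± 0.12, -0.16 ± 0.11 and -0.07 ± 0.12 (SE).

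**Figure D4:**
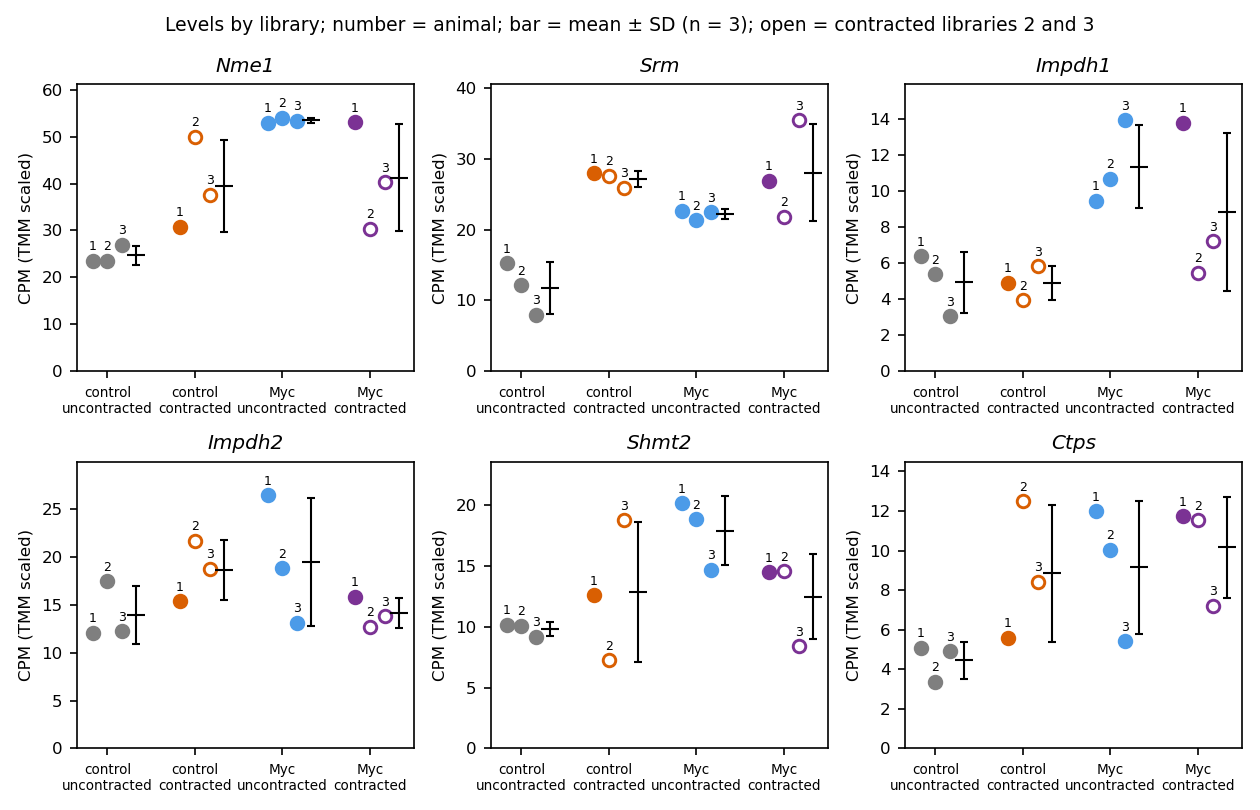
CPM (TMM scaled) by library for 6 members that were among the 12 with the smallest p for Myc against control in uncontracted legs, with animal numbers, mean ± SD (n = 3) and open points for the 4 contracted libraries in doubt. In uncontracted legs Nme1 lies at 23.5 to 26.9 CPM in control and 52.9 to 54.0 in Myc, while in contracted legs the groups overlap in all 6 genes.

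In contracted legs 2 of the 35 members, Adsl and Hprt, were higher in Myc without overlap (5.71%, against 4.21% of all genes) and none was lower (3.68% of all genes were). Adsl, the adenylosuccinate lyase gene, had 48.3, 38.8 and 38.9 CPM in contracted control and 53.1, 49.7 and 49.9 in contracted Myc legs (0.28 ± 0.17). Without the 4 libraries in doubt, 1 contracted library per genotype gave differences of 0.15 for Adsl, 0.73 for Hprt and 0.80 for Nme1. With 1 library on each side, these are given as sizes alone. Nme1 had 30.8, 50.02 and 37.6 CPM in contracted control and 53.1, 30.3 and 40.3 in contracted Myc legs (0.05 ± 0.21). In the order of their Myc reads (0, 1, 2, 10, 32 and 59) the 6 contracted libraries had 30.3, 30.8, 40.3, 50.02, 53.1 and 37.6 CPM of Nme1, given as a description since these libraries include the 4 in doubt. Impdh1, in the same order, had 5.46, 4.90, 7.22, 3.95, 13.8 and 5.83 CPM. Srm (0.05 ± 0.22 by label), Shmt2 (-0.05 ± 0.31) and Ctps (0.18 ± 0.35) differed by less than their SE.

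The contraction effect was compared between genotypes with the interaction term, which shares its uncontracted control libraries with the Myc comparison in uncontracted legs and with contraction in control. The contraction effect on Nme1 was 0.68 ± 0.22 in control and -0.38 ± 0.20 in Myc, neither of which passed (edgeR adjusted p = 0.13 and 0.37). Its interaction of -1.06 ± 0.30 was rank 8 by p and did not pass (edgeR adjusted p = 0.855). Without contracted control 1 the change in control was 0.81 and passed (edgeR adjusted p = 0.043), and without the 4 libraries in doubt it was 0.31 (edgeR adjusted p = 0.963). Impdh2 (-0.91 ± 0.38), Shmt2 (-0.93 ± 0.44) and Ctps (-0.86 ± 0.54) had interactions of the same sign and did not pass. Contracted Impdh2 stood at 15.4, 21.7 and 18.8 CPM in control and 15.9, 12.7 and 13.8 in Myc, Shmt2 at 12.6, 7.24 and 18.8 and 14.5, 14.6 and 8.42, and Impdh1 at 4.90, 3.95 and 5.83 and 13.8, 5.46 and 7.22. Contracted Atic stood at 4.20, 7.90 and 7.77 and 8.97, 7.28 and 4.81, and Mthfd1 at 6.30, 9.21 and 8.42 and 11.04, 8.49 and 7.22. In Impdh2, Shmt2 and Ctps, too, the uncontracted control level was the lowest of the 4 group means. Among members with interactions above 0, Ampd3 (1.15 ± 0.79), Hprt (0.99 ± 0.49), Azin1 (0.65 ± 0.37), Smox (0.40 ± 0.28) and Ak1 (0.25 ± 0.16) did not pass either. Without the 4 libraries in doubt 1 contracted library per genotype is left, and only the sizes of the interactions are given. They were then -0.31 for Nme1, -0.95 for Srm, -0.44 for Impdh2, -0.65 for Shmt2, -0.69 for Uck2, 0.58 for Ampd3, 0.95 for Hprt and 0.25 for Ak1. For Ctps (0.03), Azin1 (-0.07) and Smox (-0.29) the sign differed from that with all libraries.

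The 12 members too low to be tested had 8 to 86 reads each over the 12 libraries. Without a low-count filter edgeR called none of them in any comparison, and an unadjusted p under 0.05 was reached by Pfas and Adss for contraction in control, by Adss for the average and by Ahcy for Myc in uncontracted legs. Adss, the adenylosuccinate synthase gene of tissues other than muscle, had 9 reads in uncontracted and 23 in contracted control legs, and 8 and 16 in Myc legs (edgeR adjusted p = 0.17 for the average). Pfas, in new purine synthesis, had 31, 14, 19 and 22 reads in the same order of groups, and Ahcy, which clears S-adenosylhomocysteine, 11, 17, 23 and 20. Umps had 72 reads, Rrm2b 47, Tyms 45, Ctps2 41 and Mthfd1l 31 in all. Prps2 had 8 reads, in 5 of the 12 libraries. The limit that a count of 0 allows, 3 reads, was 1.80 to 2.32 CPM here.

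Beyond these members, 92 further genes of the same pathways were listed, of which 91 were in the table by symbol and 31 were tested. With contraction averaged over genotypes 1 of the 31 rose and 1 fell (3.23% each), against 5.71% and 1.77% of all genes. In this comparison 4 of the 31 (12.9%) had an unadjusted p under 0.05 by edgeR, beside 20.2% of all genes. Gda, for guanine deaminase, which removes guanine, had 11.5 to 25.1 CPM (median 15.5) uncontracted and 16.1 to 39.7 (median 30.3) contracted, a change of 0.83 ± 0.23 (edgeR adjusted p = 0.0231). Atp13a2, a lysosomal polyamine exporter gene, had 11.0 to 17.6 CPM (median 13.0) uncontracted and 5.18 to 12.6 (median 7.23) contracted, a change of -0.80 ± 0.24 (edgeR adjusted p = 0.0441). The legs overlapped in both, and DESeq2 called 1 of them, Gda. In contraction in control, contraction in Myc, Myc in uncontracted legs, Myc in contracted legs and the interaction, edgeR called none of the 31 and DESeq2 called 0, 0, 0, 0 and 0. An unadjusted p under 0.05 was held by 3, 3, 2, 0 and 2 of the 31, or 9.68%, 9.68%, 6.45%, 0% and 6.45%, beside 12.9%, 16.0%, 6.31%, 3.07% and 4.96% of all genes. Their median was 0.17 for Myc against control in uncontracted legs, beside -0.00529 for all genes.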

How the data were processed

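RNA of 12 gastrocnemius samples was extracted with Trizol and made into libraries with a QuantSeq 3' mRNA kit, per the labels' protocols. The authors deposited 1 table of raw read counts per Ensembl gene. The submitters' processing notes list STAR 2.5.2a, HTSeq 0.6.0, FastQC 0.11.5, SAMtools and the mm10 build, giving them no roles or order. Annotation, strand setting and filters are not given in the sources used here, so that reads of overlapping genes cannot be told apart.

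Counts were tested with the 2-sided quasi-likelihood F test of edgeR 4.0.16 (R 4.3.3), fitted to all 12 libraries as 4 group means after TMM scaling and edgeR's own low-count filter at 10 reads. P-values were Benjamini-Hochberg adjusted over all 6676 genes tested, and genes passed at an adjusted p under 0.05. Each SE is the log2 change divided by the square root of F. Steps were tested on simulated counts. Genes named in full passed a comparison, were among the 12 members with the smallest p for the averaged contraction, Myc in uncontracted legs or the interaction, or are paralogs of such genes; further pathway genes are named where they passed. Members and lists were chosen with earlier results of these data known. The libraries in doubt, and the fit by leg alone, were added after the data were seen. Without the libraries in doubt a gene could meet the low-count filter in 1 library, so that the genes tested, 37 members among them, differ from those of the main fit.

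Alternatives were RLE scaling, library totals, DESeq2 1.42.0, robust dispersions, other low-count filters, only the libraries compared, each library left out, and the animal as a block (fixed in edgeR, random in limma 3.58.1). The titles tie the left and right leg of a number to 1 animal, so the numbers pair the legs; their deviations from group means correlated at -0.122 to 0.112. Separate animals are the replicates. The 3-read limits describe counting error alone: without molecular identifiers, several reads may stem from 1 molecule.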

Additional observations from a re-analysis of the deposited data

Results flagged for a closer look

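Hprt, the hypoxanthine and guanine salvage gene, moved in opposite directions with contraction in the 2 genotypes: every control animal had less in the contracted leg (log2 differences of -0.46 to -0.23) and every Myc animal more (0.19 to 0.72). The interaction was 0.99 and did not pass edgeR's test (adjusted p = 0.97). Without the contracted libraries numbered 2 and 3, whose Myc reads go against their labels, it was 0.95 (edgeR adjusted p = 0.999). Single libraries held 7 to 15 reads of Hprt, and 35 members were screened in this way. Hprt alone showed opposite signs in all animals of the 2 genotypes. The share of all genes that do so was not counted, so Hprt cannot be set apart from them.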

How the results depend on the processing

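The number of members that passed with contraction averaged over genotypes was 4 under every scaling, filter, dispersion and tool tried, and 4 to 5 when single libraries were left out. Leaving out the 4 contracted legs of animals 2 and 3 made it 1; each genotype then has 1 contracted library, assumed to vary like the other groups. Without these 4 it was also 1 in control and 1 in Myc, against 3 each, with member medians of 0.111 and 0.0584 in place of 0.0189 and -0.0579, and 1 (Nme1) for Myc in uncontracted legs, against 0. For that last comparison it was 1 with no low-count filter and 1 when only the libraries compared were fitted, and the stricter filter gave a median of -0.0338. Leaving out single libraries gave 1 to 4 members in Myc, where the count was 1 without contracted Myc 3, and 2 to 4 in control. It gave 0 to 1 for Myc in uncontracted legs, with medians of -0.0121 to 0.151, and medians of -0.0351 to 0.114 for Myc in contracted legs. With the animal as a replicate block 3 members passed in control, 3 in Myc, 4 on average and 0 for the interaction, and with the random block 0 in both Myc comparisons, so that the block changed no call. The cause of these shifts was not tested, and the drop without the 4 contracted legs was not set against that over all genes. No member that passed, or passed under any alternative, changed direction in that comparison in the alternatives run. Genes with under about 10 reads per library, 12 members among them, limit what this depth can show.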
